A study of Mus musculus with 6 samples.

Results

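The accessible sites around 10 genes of LIF and BMP signalling were described in 2 lists of reproducible ATAC-seq peaks, 1 from WT and 1 from Spen KO clone 3 mouse embryonic stem cells (mESCs). The genes were the receptor genes Lifr and Il6st, the kinase gene Jak1, the transcription factor gene Stat3 and its inhibitor Socs3 for LIF, and the ligand gene Bmp4, the target genes Id1, Id2 and Id3 and the inhibitory Smad6 for BMP. Members were all peaks that overlapped the body of such a gene or lay within 50 kb of it in the GENCODE annotation of mm9. This gave 37 of the 22753 WT peaks and 26 of the 23722 Spen KO clone 3 peaks, at 41 distinct sites on 8 chromosomes. Sites are numbered along the chromosome within each gene.

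In ATAC-seq the Tn5 transposase cuts open chromatin and tags it with adapters for sequencing. All cells were haploid HATX mESCs with a doxycycline-inducible Xist transgene, grown in serum and LIF on gelatin, so the LIF that activates the pathway was in the medium of both lines. WT cells kept Spen, which encodes a large RNA-binding repressor protein, and each Spen KO line was 1 clone with a deletion in the gene. The authors describe this deletion as full in their results and as covering most of the gene in their list of materials. The series holds 6 samples, since WT, clone 2 and clone 3 were each sampled without doxycycline and with 2 ug/mL of it for 48 h. The lists name only the line, so whether their cells had received doxycycline is unknown, and clone 2 was not analysed here. Whether the 2 replicates of a list were treated alike is also unknown, so gaps between them may include a difference in treatment. Each list joins 2 technical replicates, and with 1 list per line a difference between lines had no biological replicate check and no test was made.

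LIF binds a receptor of Lifr and gp130, the product of Il6st, which activates Jak kinases and through them Stat3, a factor that supports self-renewal of mESCs. Socs3 is induced by Stat3 and inhibits the receptor and its kinases, which closes a negative feedback loop. BMP ligands such as Bmp4 act through serine/threonine kinase receptors and the factors Smad1, Smad5 and Smad9 together with Smad4. The Id genes, direct BMP targets in mESCs, encode proteins that bind and block bHLH transcription factors, and Smad6, also induced by BMP, inhibits the pathway.

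Sequences are shown for some of the sites with a motif match, in mm9 and on the strand of the gene, with the matched motif in capitals. The palindrome TTCCNGGAA is a high-affinity STAT site. Among the member peaks it was found in the 300 bp around the midpoint only at the start of Socs3, in both lists. The match lies 119 bp downstream of the Socs3 start given by RefSeq and 53 bp upstream of the nearest GENCODE coding start, and the printed run is chr11:117830543-117830571 on the minus strand.
Socs3 site 5: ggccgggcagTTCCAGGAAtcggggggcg
The letters GGCGCC form the GC-rich site bound by Smad1 and Smad5. They are shown for the upstream sites of Id1 and Id2, where BMP-responsive elements are known, for the upstream site of Smad6, and for the site beyond Id3 that was found in Spen KO clone 3 only. These runs are chr2:152560828-152560953 on the plus strand, chr12:25783668-25783847 on the minus strand, chr9:63870803-63870928 on the minus strand and chr4:135703717-135704016 on the plus strand, in this order.
Id1 site 5: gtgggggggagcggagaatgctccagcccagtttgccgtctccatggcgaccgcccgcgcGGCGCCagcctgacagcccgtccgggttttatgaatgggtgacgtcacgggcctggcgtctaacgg
Id2 site 2: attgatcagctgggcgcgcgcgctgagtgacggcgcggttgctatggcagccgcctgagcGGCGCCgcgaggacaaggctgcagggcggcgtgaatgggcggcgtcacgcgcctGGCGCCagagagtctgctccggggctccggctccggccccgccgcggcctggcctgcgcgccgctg
Smad6 site 5: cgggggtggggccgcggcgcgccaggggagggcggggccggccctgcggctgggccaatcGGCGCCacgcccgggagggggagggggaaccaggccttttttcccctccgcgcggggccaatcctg
Id3 site 3: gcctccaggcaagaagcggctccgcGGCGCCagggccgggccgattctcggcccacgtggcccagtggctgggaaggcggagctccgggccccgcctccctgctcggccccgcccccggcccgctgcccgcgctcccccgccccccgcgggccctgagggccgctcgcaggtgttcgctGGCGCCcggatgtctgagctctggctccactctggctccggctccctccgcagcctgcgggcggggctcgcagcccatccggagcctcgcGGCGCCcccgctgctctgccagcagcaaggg
A local alignment of the Id1 and Id2 runs covered 84 positions without a gap, of which 57 were identical (67.9%). The Id3 run aligned over shorter stretches, at 72.9% identity over 59 columns with 6 gaps for Id2 and 68% over 50 columns with 5 gaps for Id1. The alignment scores were 30 for Id1 and Id2, 21 for Id2 and Id3 and 12 for Id1 and Id3, with 1 added for a match, 1 taken off for a mismatch and more for gaps. The Id1 and Id2 runs had no identical stretch longer than 8 bases. All of these runs were cut around GGCGCC matches and no unrelated runs were aligned, so a likeness beyond the motif was not tested. The palindromic Smad box GTCTAGAC was matched in 1 member peak, the WT-only peak at the start of Smad6, where it spans the RefSeq start, from 4 bp before it (chr9:63869852-63869881, minus strand).
Smad6 site 4: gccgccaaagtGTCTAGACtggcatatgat
The octamer ATGCAAAT, bound by Oct4, was matched in the 300 bp window of 1 member peak, found upstream of Il6st in Spen KO clone 3 only. Over whole peaks it was also matched at site 7 of Socs3, a shared site, in both lists. The Il6st run is shown here as it reads on the plus strand (chr13:113252716-113252843).
Il6st site 3: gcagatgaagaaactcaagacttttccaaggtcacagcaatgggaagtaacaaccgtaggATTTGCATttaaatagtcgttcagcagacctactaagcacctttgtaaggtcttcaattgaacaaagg

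A larger share of the WT peaks at these genes than of all WT peaks had no counterpart in the other list, and a smaller share of the Spen KO clone 3 peaks. A peak was called shared if at least 1 bp of it lay in a peak from the other line. Of the 37 WT peaks, 15 were WT-only (40.5%, 95% Wilson interval 26.3 to 56.5), compared with 26.0% of all autosomal WT peaks. Of the 26 Spen KO clone 3 peaks, 4 were found in that list only (15.4%, interval 6.15 to 33.5), compared with 28.4% of all autosomal peaks of that list. The WT interval starts just above its background share, and the Spen KO clone 3 interval holds its own. Peaks away from the promoter of any coding gene made up 73.0% of the WT member peaks and 57.0% of all autosomal WT peaks. Of these 27 WT member peaks, 12 were WT-only (44.4%, interval 27.6 to 62.7), and this interval holds the 29.8% found over all autosomal WT peaks of that kind. Of the 19 such member peaks of Spen KO clone 3, 4 were found in that list only (21.1%, interval 8.51 to 43.3), compared with 37.6% over all. Peaks at 1 gene share their locus, so these intervals, which cover counting error only, are narrower than they would be for independent sites. In bulk samples, fewer open cells and less open chromatin per cell cannot be told apart. At the LIF genes 5 of 17 WT peaks were WT-only and 1 of 13 Spen KO clone 3 peaks was found in that list only. At the BMP genes these counts were 10 of 20 and 3 of 13.

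The unshared sites were weak ones, as most unshared peaks of these lists were. Each peak carries 1 value per replicate, of unnamed scale, with a median of 19.5 over the WT list and 17.9 over the Spen KO clone 3 list for the mean of both replicates. Values were therefore turned into percentiles within the replicate and list, from the lowest to the highest peak. None of the 19 unshared member peaks reached the median of its list, a level reached by 677 of the 5645 autosomal WT-only peaks and by 1005 of the 6383 found in Spen KO clone 3 only. The 15 WT-only peaks had percentiles of the mean value from 0.532 to 39.7 with a median of 14.1, compared with a median of 20.1 over all autosomal WT-only peaks. The 4 peaks found in Spen KO clone 3 only ranged from 1.14 to 29.6 with a median of 5.77, compared with 22.3 over all such autosomal peaks. Member peaks were also narrower than the rest, with median lengths of 443 bp in WT and 458 bp in Spen KO clone 3 beside 544 and 523 bp over all autosomal peaks. The gap was smaller away from promoters. Member peaks not at the promoter of their gene had medians of 431 and 448.5 bp, beside 484 and 479 bp for all autosomal peaks away from coding promoters.

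**Figure D1:**
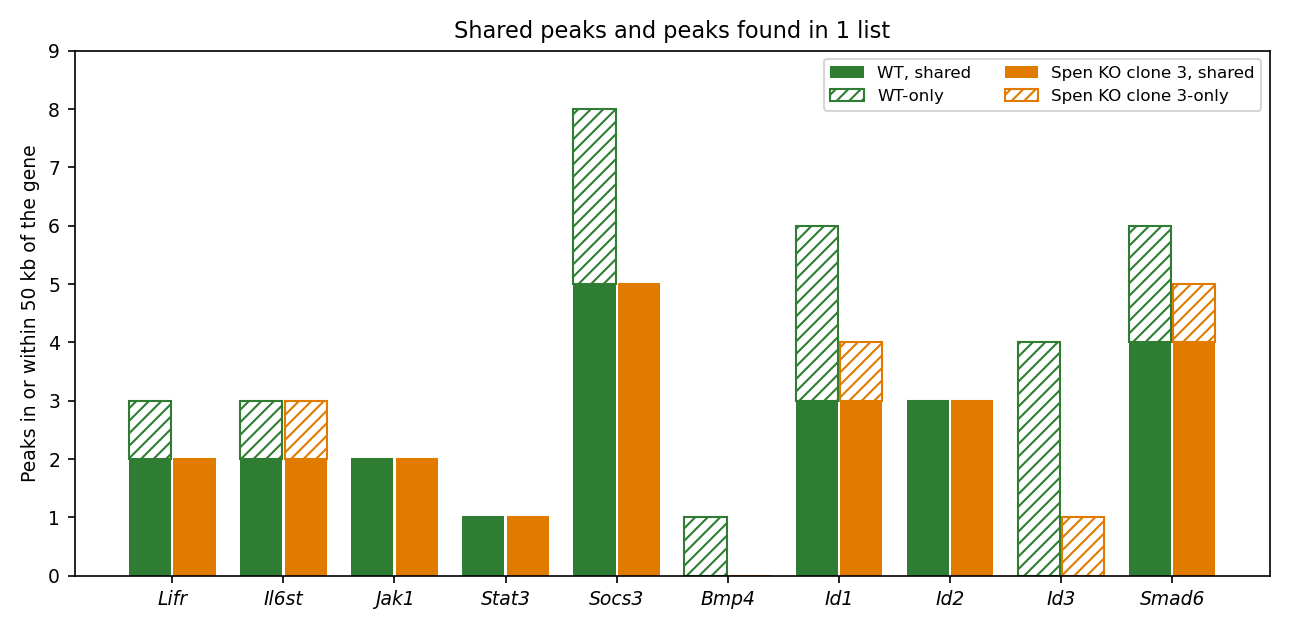
Number of ATAC-seq peaks in the gene body or within 50 kb for each of the 10 genes in the WT and the Spen KO clone 3 list, split into shared and unshared peaks. Socs3 has 8 WT and 5 Spen KO clone 3 peaks, Id3 has 4 and 1, and Bmp4 has 1 and 0.

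**Figure D2:**
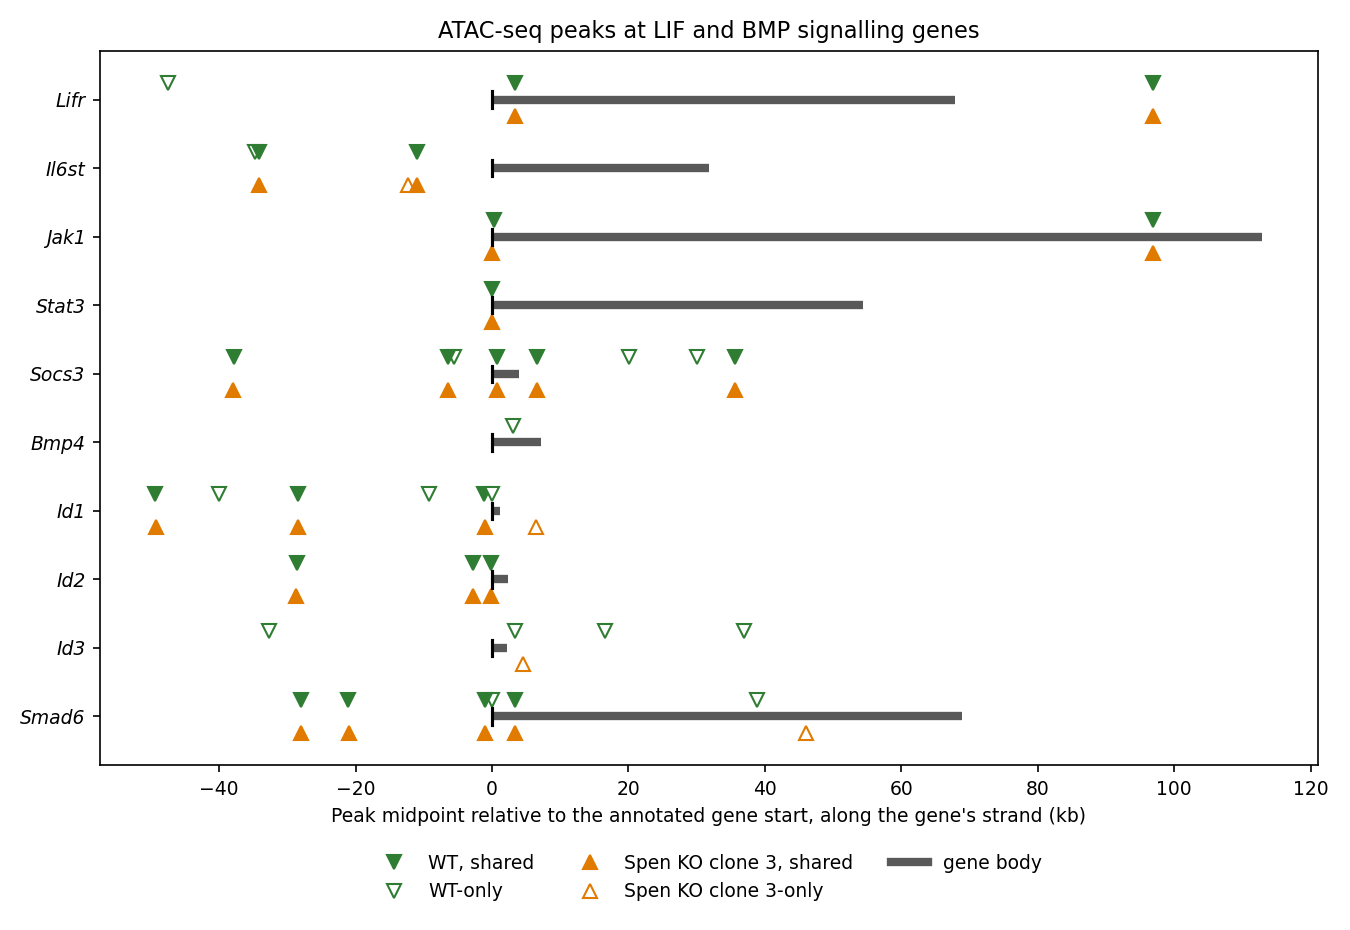
Peaks of both lists around each of the 10 genes, plotted by distance from the annotated gene start in kb along the gene's strand. Unshared peaks are drawn apart from shared ones, the 8 sites around Socs3 lie in the gene and on both flanks, and the 7 around Smad6 lie in the gene or upstream of it.

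For each of the 22 shared pairs, the percentiles of both replicates were set side by side, and a pair was called lower or higher in Spen KO clone 3 if both of its percentiles there lay below or above both WT percentiles. By this rule 6 pairs were lower, compared with 22.9% of all shared autosomal pairs, and 2 were higher, compared with 23.0%. The remaining 14 overlapped. The median shift from WT to Spen KO clone 3 was -3.63 percentile points over the members and -0.111 over all shared autosomal pairs. The sign of the member median changed with the replicate, from -17.4 without replicate 1 to 1.43 without replicate 2. The median gap between replicates was 13.0 points in WT and 16.1 in Spen KO clone 3 over the member pairs, compared with 9.27 and 9.41 over all pairs. In Spen KO clone 3 it was 7.17 at the LIF genes and 18.4 at the BMP genes, and in WT 16.5 and 13.0. When a gap of at least 20 points between the means was also required, 3 pairs were lower, all of them at Socs3, and 1 was higher, at Il6st. Over all shared autosomal pairs these calls took 9.06% and 10%.

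**Figure D3:**
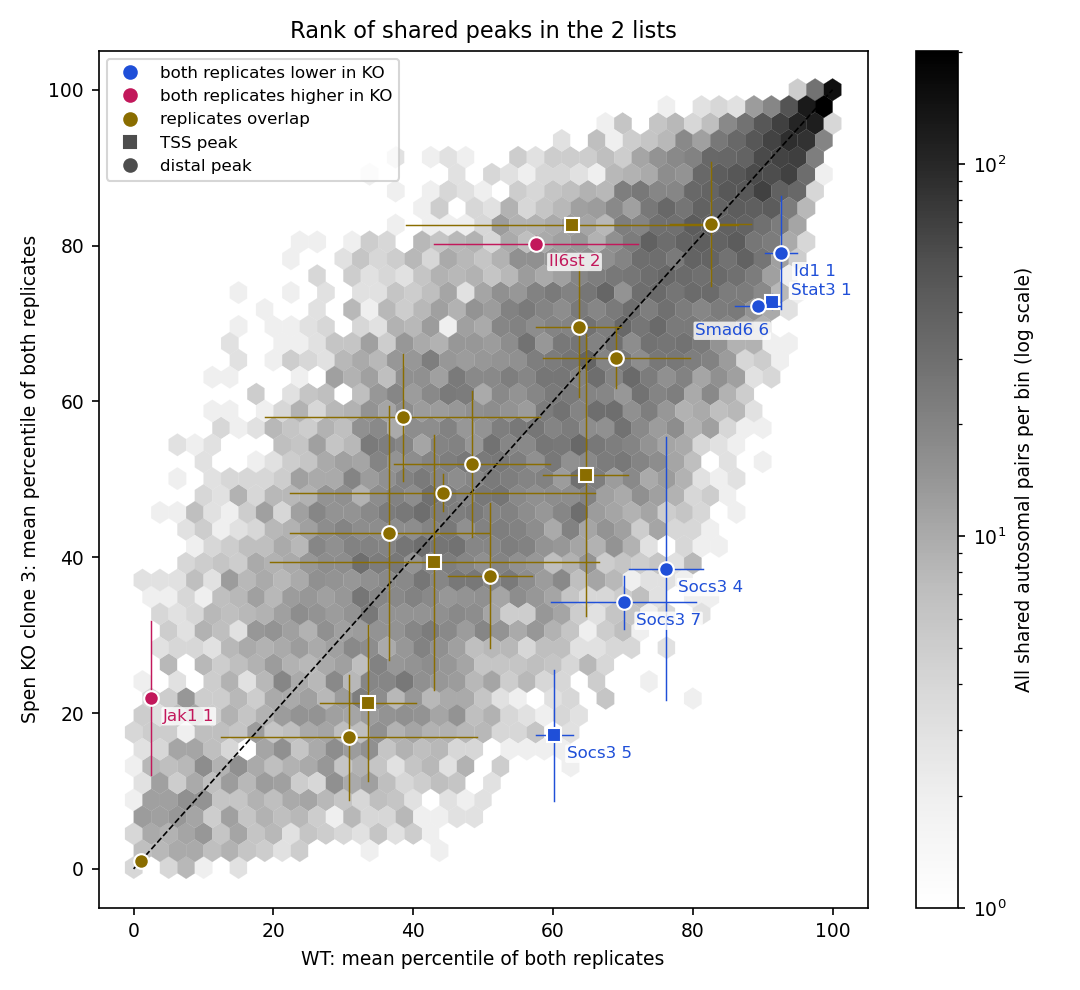
Mean percentile of each shared peak in the WT list (x axis) and the Spen KO clone 3 list (y axis), with lines that span both replicates, over a density of all shared autosomal pairs in grey. The Socs3 sites 4, 5 and 7 lie below the diagonal by 37.6, 43.0 and 35.9 points, and Il6st site 2 lies above it by 22.7.

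Promoter peaks, defined as those that overlap the 1 kb on either side of the start of a coding transcript, were found for 6 of the member genes in each list, or for 6 in WT and 4 in Spen KO clone 3 with a window of 500 bp. Jak1, Stat3, Socs3, Id1, Id2 and Smad6 had one in each list, and Lifr, Il6st, Bmp4 and Id3 had none in either. Over all autosomal coding genes, 45.6% had a promoter peak in WT and 41.6% in Spen KO clone 3. Id1 and Smad6 each had a second promoter peak in WT only, so that the WT list held 8 such peaks and the Spen KO clone 3 list 6. Of the 6 shared promoter pairs, 2 were lower in Spen KO clone 3, those of Stat3 and Socs3, and none was higher, while 29.0% of all shared autosomal promoter pairs were lower and 13.6% higher. The median shift of the 6 pairs was -13.1 points, compared with -2.84 over all autosomal promoter pairs. RefSeq starts could be placed in mm9 for 9 of the genes, and a RefSeq start of Il6st 10938 bp upstream of the GENCODE start lay inside a shared peak. With it, 7 genes had a promoter peak in each list.

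The receptor genes differed in how close their sites lay to a start. Lifr, which encodes the LIF receptor subunit, had 3 WT and 2 Spen KO clone 3 peaks. Its strongest Spen KO clone 3 peak was the intronic site 2 (chr15:7082736-7083100), about 3346 bp downstream of the start. The replicates of site 2 stood at percentiles 18.8 and 58.2 in WT and 49.8 and 66.1 in Spen KO clone 3. Site 3, the strongest WT peak (chr15:7176219-7176577), lies in the neighbouring gene Egflam and stood at 44.9 and 57.0 in WT and at 47.0 and 28.3 in Spen KO clone 3. The replicates overlapped between lines at both sites. Site 1, 47523 bp upstream, was WT-only.

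Il6st, which encodes the shared receptor subunit gp130, had the only member pair that was higher in Spen KO clone 3 by at least 20 points. This was site 2 (chr13:113230876-113231375 in WT), 34091 bp upstream of the GENCODE start. Its replicates had values of 18.4 and 25.5 in WT, at percentiles 43.0 and 72.2. In Spen KO clone 3 the values were 27.9 and 26.4, at percentiles 81.2 and 79.3. Both Spen KO clone 3 percentiles thus lay above both from WT, with a shift of the mean of 22.7 points, although the WT replicates themselves lay 29.1 points apart. A WT-only peak, site 1, lay 120 bp from the Spen KO clone 3 peak of site 2. Site 4, at the RefSeq start (chr13:113253963-113254578), was the strongest WT peak of the gene, with percentiles of 58.6 and 79.6 in WT and 69.3 and 61.7 in Spen KO clone 3. Its replicates overlapped between lines. Site 3, the peak with the octamer printed above, was found in Spen KO clone 3 only, with percentiles of 29.8 and 35.6, and lay 941 bp from the nearest WT peak.

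Jak1, the kinase bound to gp130, had a shared promoter peak whose WT replicates disagreed. Its values were 35.4 and 16.8 in WT, at percentiles 86.4 and 38.9, and 29.1 and 27.9 in Spen KO clone 3, at percentiles 83.2 and 82.1. The Spen KO clone 3 values fell between those of the WT replicates, so the pair counted as overlapping. The peak was 1091 bp long in WT (chr4:100937063-100938153) and 695 bp in Spen KO clone 3. Site 1, deep in an intron 96881 bp from the start, was among the weakest WT peaks at percentiles 2.91 and 1.94. It stood at 31.8 and 12.1 in Spen KO clone 3, a shift of 19.5 points. The replicates did not overlap between lines, and the pair was called higher.

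Stat3, the factor that acts downstream of the receptor, had no other site than its promoter peak (chr11:100800529-100801311 in WT). Values there were 42.2 and 37.5 in WT and 24.4 and 23.2 in Spen KO clone 3. The WT percentiles were 92.3 and 90.4 and those of Spen KO clone 3 were 73.8 and 71.8. The replicates agreed closely within each line and did not overlap between lines, with a shift of -18.5 points.

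Socs3 had the 3 largest rank shifts of the 22 shared pairs. It had 8 WT peaks, a count at percentile 97.7 among autosomal coding genes, whose median is 2, and 5 Spen KO clone 3 peaks, at percentile 86.6. At its promoter, site 5 (chr11:117830383-117830913 in WT), which holds the STAT palindrome printed above, the values were 21.9 and 22.3 in WT and 9.63 and 13.3 in Spen KO clone 3. The percentiles were 57.6 and 62.8 in WT and 8.75 and 25.5 in Spen KO clone 3, a shift of -43.0 points. Its IDR, the rate of irreproducible discovery between replicates, was 0.000270 for the WT peak and 0.0431 for the Spen KO clone 3 peak, and the authors kept peaks up to 0.05. In Spen KO clone 3 this promoter was thus close to the limit of being listed.

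The sites on both sides of the Socs3 promoter moved the same way. Site 4 (chr11:117824497-117825141), 5681 bp downstream of the start, had percentiles of 70.9 and 81.4 in WT and 55.4 and 21.6 in Spen KO clone 3, a shift of -37.6 points. Its IDR in Spen KO clone 3 was 0.0494. Site 7 (chr11:117837491-117837993), 7242 bp upstream, had percentiles of 59.7 and 80.5 in WT and 30.8 and 37.6 in Spen KO clone 3, a shift of -35.9 points. At both sites the replicates of the lines did not overlap. Lengths at the 3 sites changed little, with 531, 645 and 503 bp in WT and 552, 593 and 454 bp in Spen KO clone 3 for sites 5, 4 and 7. Site 1, 34815 bp downstream, was the strongest Spen KO clone 3 peak of the gene, at 50.6 and 45.9. These percentiles lay between those of its WT replicates, 22.4 and 66.1. Site 8, in the neighbouring gene Pgs1, was near the bottom of both lists. Sites 2, 3 and 6 were WT-only, with percentiles of the mean value of 3.17, 39.7 and 14.1.

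**Figure D4:**
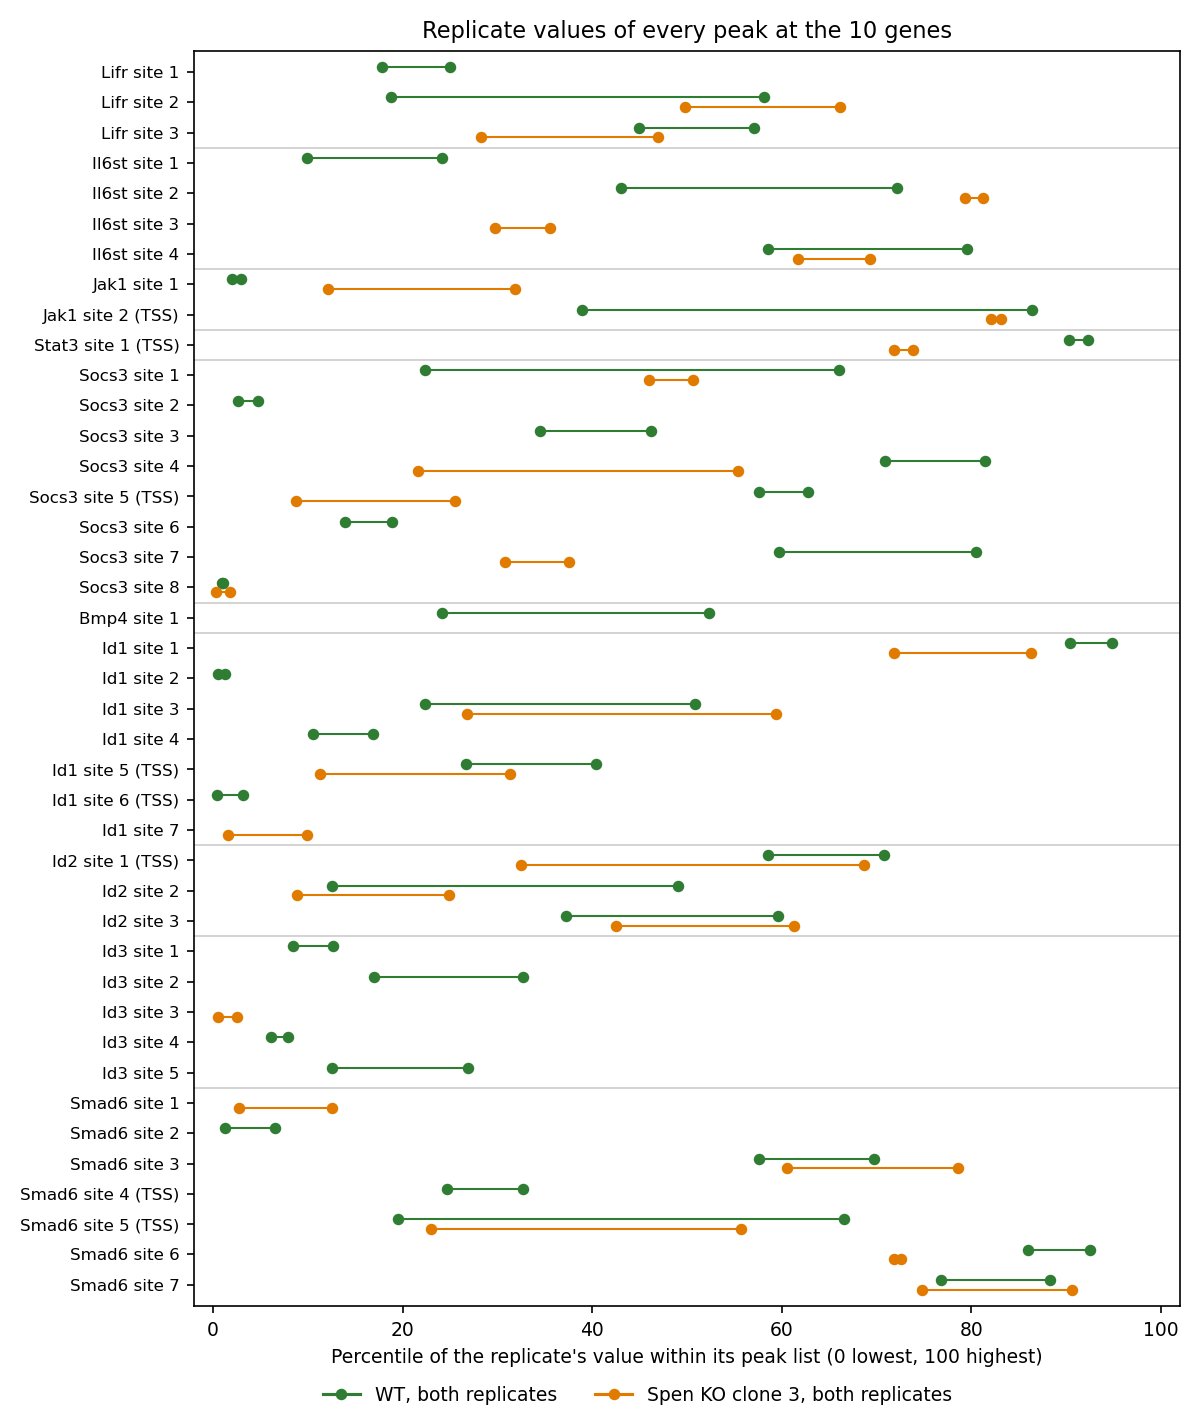
Percentile of both replicate values within their list for every peak at the 10 genes, joined by a line, for WT (green) and Spen KO clone 3 (orange). Rows with a single colour are unshared peaks, all of which have a mean value below the median of their list, and at Socs3 sites 4, 5 and 7 the orange points lie left of the green ones.

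On the BMP side, the ligand gene Bmp4 had no Spen KO clone 3 peak within 50 kb. Its only peak (chr14:47007033-47007367) was WT-only and lay in an intron, 3025 bp downstream of the start, with values of 20.4 and 14.1 at percentiles 52.3 and 24.2. The nearest Spen KO clone 3 peak was 277710 bp away. Such an empty window was common, since 17.9% of autosomal coding genes had no peak of the Spen KO clone 3 list in theirs.

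The target gene Id1 had 6 WT and 4 Spen KO clone 3 peaks. Its upstream site 5, about 1110 bp before the start and with the GGCGCC site printed above, was shared (chr2:152560689-152561065 in WT). Values were 14.9 and 17.0 in WT and 10.5 and 14.1 in Spen KO clone 3. The percentiles of 26.7 and 40.4 in WT and 11.3 and 31.3 in Spen KO clone 3 overlapped. Site 6, at the start itself (chr2:152561779-152562170), was WT-only and among the weakest peaks of the list, at percentiles 0.407 and 3.13, and lay 686 bp from the nearest Spen KO clone 3 peak. The strongest site within 50 kb, site 1, lies at the promoter of Mcts2 inside H13. It stood at 90.4 and 94.9 in WT and at 71.8 and 86.3 in Spen KO clone 3 and was called lower, but it belongs to those genes by position. Of the other 4 sites, site 3 was shared and overlapped, sites 2 and 4 were WT-only, and site 7 was found in Spen KO clone 3 only.

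Id2 was the BMP target with the most alike peak sets, with 3 shared sites and no unshared one. Its promoter peak (chr12:25780868-25781310) had values of 26.2 and 21.1 in WT and 22.7 and 14.4 in Spen KO clone 3. The percentiles were 70.8 and 58.5 in WT and 68.7 and 32.5 in Spen KO clone 3 and overlapped. Site 2, 2784 bp upstream and with 2 GGCGCC sites in the run printed above, had percentiles of 12.5 and 49.1 in WT and 24.9 and 8.88 in Spen KO clone 3. Site 3, 28603 bp upstream, had 37.3 and 59.6 in WT and 61.3 and 42.5 in Spen KO clone 3. None of the 3 pairs met the rule for lower or higher.

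Id3 was the opposite, with no shared site. All 4 of its WT peaks were WT-only and its 1 Spen KO clone 3 peak was found in that list only. The strongest WT peak, site 2 (chr4:135702554-135703069), lies 3399 bp beyond the nearest start and had percentiles of 17.0 and 32.7. Site 3, the Spen KO clone 3 peak with 3 GGCGCC sites (chr4:135703687-135704083), lies 618 bp from it and had percentiles of 0.502 and 2.5. All 5 were thus weak, and the farthest of the WT peaks, site 5, lies at the promoter of the neighbouring gene E2f2.

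Smad6, the inhibitor of the pathway, had 6 WT and 5 Spen KO clone 3 peaks at 7 sites. The peak at its start, site 4 (chr9:63869708-63870134), which holds the Smad box printed above, was WT-only with values of 16.1 and 14.2 at percentiles 32.7 and 24.6. It lay 466 bp from the nearest Spen KO clone 3 peak, that of site 5. Site 5, 996 bp upstream (chr9:63870608-63871117), was shared and had percentiles of 19.5 and 66.5 in WT and 55.7 and 23.0 in Spen KO clone 3, which overlapped. Site 6, the strongest WT peak of the gene (chr9:63890675-63891256), 21099 bp upstream, had values of 42.6 and 33.3 in WT and 23.7 and 23.5 in Spen KO clone 3. Its percentiles of 92.5 and 86.0 in WT and 71.9 and 72.6 in Spen KO clone 3 did not overlap, a shift of -17.1 points. Site 7, the strongest in Spen KO clone 3 and 27929 bp upstream, had percentiles of 76.8 and 88.3 in WT and 74.8 and 90.7 in Spen KO clone 3. Site 3, in an intron, was shared with overlapping replicates, and the intronic sites 1 and 2 were each found in 1 list.

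Motifs were searched on either strand within the 300 bp centred on each peak. The STAT palindrome TTCCNGGAA matched 1 of 37 WT and 1 of 26 Spen KO clone 3 member peaks, and 1.26% and 1.13% of all autosomal peaks. Its relaxed form TTCNNNGAA, which includes the palindrome, matched 5 and 2 member peaks, and 6.88% and 6.61% of all. GGCGCC, its own reverse complement, matched 6 WT member peaks (16.2%, compared with 15.3% of all) and 9 Spen KO clone 3 member peaks (34.6%, compared with 13.6%). These matches were not confined to BMP genes. They included Lifr site 2 and Socs3 site 5 in both lists and Jak1 site 2 in Spen KO clone 3. In whole peaks both lists had 9 (24.3% and 34.6%, compared with 24.2% and 21.2% of all whole peaks), since matches at Jak1 site 2, Il6st site 4 and Smad6 site 7 lay outside the WT window. Of the others, GTCTAGAC matched 1 and 0 member peaks and 0.341% and 0.298% of all, ATGCAAAT 0 and 1 member peaks and 3.24% and 3.29% of all, and the Esrrb half-site TCAAGGTCA none, with 0.548% and 0.735% of all.

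Further genes of the pathways were classed by the lists that held a promoter peak of theirs. Of 18 further LIF genes, 7 had one in both lists (38.9%) and 6 in neither, namely the ligand Lif, the receptor genes Osmr and Cntfr, the kinase Tyk2, and Stat5a and Stat5b. Clcf1 and Jak2 had one in WT only, and Ctf1, Ptpn11 and Pim1 in Spen KO clone 3 only. Of 19 further BMP genes, 12 had one in both lists (63.2%) and Bmpr2 and Smad9 in neither. The receptor gene Bmpr1a, the factor Smad5 and the extracellular antagonist Nog had one in WT only, and the receptor gene Acvr2a and the antagonist Grem1 in Spen KO clone 3 only. Over all 21281 autosomal coding genes, 37.1% had a promoter peak in both lists, 8.43% in WT only and 4.43% in Spen KO clone 3 only, and 10640 genes had one in neither.

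The promoters of stem cell and other marker genes were checked in the same way. Pou5f1, Zfp42 and Esrrb, which mark mESCs, had a promoter peak in both lists, Sox2 in WT only and Klf4 in Spen KO clone 3 only, while Nanog and Dppa5a had none. Of 5 fibroblast markers only Thy1 had one, of 4 endoderm markers only Gata4, and of 3 neural markers Pax6 and Olig2, each in WT only. Tfcp2l1 and Sox1 were not found under these names in the annotation. These 4 promoter peaks of other cell types' genes were WT-only, at percentiles of the mean value between 6.44 and 38.2, and their part in the counts above was not tested.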

How the data were processed

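ATAC-seq was measured in haploid mESCs, and 1 peak list each for WT and Spen KO clone 3 was used. The deposited peaks are those that reached an IDR under 0.05 between technical replicates, each called with MACS2 (q-value 0.01, no shift model). Behind them the authors used Bowtie2 alignments to mm9 of cutadapt-trimmed read pairs, restricted to proper, uniquely placed pairs and cleared of PCR copies by Picard. Unique mapping can leave out peaks in repeats. The deposited values are a start, an end, a length and, for each peak, 1 value per replicate, of unnamed scale, and the IDR. They were used as ranks within a list. Depth is unknown, and a peak's presence depends on each list's depth and thresholds. Read counts were not used here.

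The 2 lists were joined by overlap of at least 1 bp. GENCODE vM1 gave genes and starts, and RefSeq promoter sequences (GRCm38) were matched exactly to the mm9 sequence for 9 members. Members, lists and rules were chosen with earlier results of these data known. Peaks described with all replicate values were the promoter peaks, the strongest distal peak of each gene in each list, and pairs without overlap that differed by at least 20 points. Some further sites are named, chosen after their values were seen. No test was made. The overlap, call and motif steps were tested on simulated data. Alternatives covered the window, score minimum, list length, overlap, start set, motif window and each replicate left out. The tools were pysam 0.24.0, samtools 1.23.1, matplotlib 3.10.9, scipy 1.17.1, pandas 2.3.3 and numpy 2.4.6 in Python 3.11.15.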

Additional observations from a re-analysis of the deposited data

How the results depend on the processing

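Of 65 values computed under alternatives, 49 stayed within 1.5 times the reported count or within the replicate spread (median SD 11.3 percentile points) and 16 moved. With a window of 20 kb the members were 22 WT peaks, of which 9 were WT-only (40.9%), and 17 Spen KO clone 3 peaks, of which 4 were found in that list only (23.5%, nearer to the background of 28.4%). With 100 kb, 18 of 49 WT peaks were WT-only (36.7%) and 7 of 38 Spen KO clone 3 peaks were found in that list only (18.4%, still below the background). A minimum at each list's median score kept 13 WT and 11 Spen KO clone 3 peaks, of which 4 and 2 had no counterpart in the other filtered list (30.8% and 18.2%, beside 21.2% and 23.9% of all autosomal peaks so filtered). Leaving out replicate 1 or replicate 2 gave a median shift of -17.4 to 1.43 points, so its sign depends on the replicate kept, and without replicate 2 it was above 0. With lists of equal length, 16 WT and 3 Spen KO clone 3 peaks were unshared, beside 26.9% and 26.2% of all autosomal peaks. Counting peaks within 500 bp as shared left 12 and 4 (32.4% and 15.4%, beside 25.2% and 27.6% of all). With a promoter window of 500 bp, genes with a promoter peak were 6 in WT and 4 in Spen KO clone 3. RefSeq starts, added after seeing the data, gave 9 and 7 promoter peaks. In 500 bp windows, relaxed STAT matches were 9 in WT (24.3%) and 4 in Spen KO clone 3 (15.4%), beside 11.5% of all autosomal peaks in both lists, and octamer matches were 1 and 2, beside 4.10% and 4.23%. In whole peaks, relaxed STAT matches were 9 and 2, beside 13.0% of all in both lists, and octamer matches again 1 and 2, beside 4.38% and 4.34%. No paired analysis was possible because no label pairs the replicates of the 2 lists. The shifts without one replicate set the replicate columns of the lists beside each other by position only. The cause of these differences was not tested, and unknown depth limits what an absent peak shows.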
